A study of Mus musculus with 12 samples.

Results

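The 10 genes described here encode the 4 mouse Notch receptors (Notch1, Notch2, Notch3 and Notch4), 5 of their ligands (Dll1, Dll3, Dll4, Jag1 and Jag2) and Hes1, a transcriptional repressor that Notch signalling switches on. They were taken by name as Notch pathway genes, out of 19938 genes measured, and each is represented by its single-symbol probe set, of which every one of the 10 had exactly 1. The cells are a clone of D3, a line of embryonic stem (ES) cells, and total RNA of 12 samples had been hybridised to Affymetrix whole-transcript arrays, 3 samples for each of 4 groups. The groups are embryoid bodies (EBs) that received all-trans retinoic acid (ATRA), a vitamin A derivative that binds nuclear receptors, for 12 h at 5 micromolar by the labels, EBs that received DMSO, the solvent, for 12 h, untreated EBs at day 4, and undifferentiated ES cells at day 0. EBs are aggregates that form in bacteriological dishes after LIF, the cytokine that maintains ES cells, is withdrawn. No group carries a transgene or a mutation according to the labels, the same clone underlies all 4, and the titles place the 12 h after day 4 while the treatment protocol places it within the 4 days.

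Notch receptors and their ligands are both membrane proteins, so the signal passes between touching cells. A bound ligand is pulled into the cell that bears it, the receptor is then cut by ADAM proteases and by gamma-secretase, and its intracellular part enters the nucleus, where it joins RBPJ and Mastermind proteins and turns on Hes and Hey genes. In the mouse embryo the pathway times the segmentation of the presomitic mesoderm, holds neural progenitors back from differentiation and shapes blood vessels. Transcript levels of receptors and ligands do not show how much receptor is cut.

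The data are log2 values per probe set. Array medians lay between 7.76 and 7.86, replicates correlated at 0.996 to 0.999 over genes, and the interquartile range was lowest on ES replicate 2 and EB replicate 2 (3.50 each, against up to 3.65 on the others). The 8 ES cell markers stayed high in every group, with array means of 12.50 to 12.53 with ATRA, 12.63 to 12.67 with DMSO, 12.62 to 12.69 in day 4 EBs and 12.53 to 12.60 in ES cells on the log2 scale. The number of arrays limits the precision. In bulk samples such as these, fewer cells of a type and less RNA per cell cannot be told apart. Differences below are log2 differences ± SE from 1 limma fit over all 12 arrays (n = 3 per group), the first-named group minus the second, and a gene is called at a Benjamini-Hochberg adjusted p under 0.05 over all genes. Levels of different genes come from different probes and are not compared.

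The promoter windows of the 2 genes called between ATRA- and DMSO-treated EBs, Notch4 and Jag1, and of Dll1, the ligand gene called between day 4 EBs and ES cells, are shown with the letters that a search found in them. The 250 bases before the start are from RefSeq on GRCm38.p6, read 5′ to 3′ on the strand of the gene. Capitals mark matches, on either strand, to TGGGAA (the core bound by RBPJ) or to 1 of 4 hexamers that make up binding sites of retinoic acid receptors. These hexamers are AGGTCA, its variant GGGTCA, another variant read as GGTTCA, and a last one read as AGTTCA.
Notch4 (chr17:34564045-34564294, forward strand): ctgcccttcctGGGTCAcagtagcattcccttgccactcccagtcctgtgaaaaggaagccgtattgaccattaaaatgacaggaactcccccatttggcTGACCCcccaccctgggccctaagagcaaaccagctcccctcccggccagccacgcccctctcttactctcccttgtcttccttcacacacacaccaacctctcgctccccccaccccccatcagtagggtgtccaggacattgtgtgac
Jag1 (chr2:137116521-137116770, reverse strand): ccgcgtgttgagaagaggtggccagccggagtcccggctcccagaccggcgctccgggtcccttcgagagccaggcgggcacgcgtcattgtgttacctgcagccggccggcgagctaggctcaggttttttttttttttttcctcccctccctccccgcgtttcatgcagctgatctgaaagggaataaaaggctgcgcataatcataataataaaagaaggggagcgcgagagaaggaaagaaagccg
Dll1, outer start (chr17:15376933-15377182, reverse strand): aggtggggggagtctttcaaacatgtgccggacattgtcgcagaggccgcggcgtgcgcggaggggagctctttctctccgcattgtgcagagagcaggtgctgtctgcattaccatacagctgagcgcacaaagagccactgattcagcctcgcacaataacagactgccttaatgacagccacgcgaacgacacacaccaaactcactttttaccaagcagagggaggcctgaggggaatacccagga
Dll1, inner start (chr17:15375824-15376073, reverse strand): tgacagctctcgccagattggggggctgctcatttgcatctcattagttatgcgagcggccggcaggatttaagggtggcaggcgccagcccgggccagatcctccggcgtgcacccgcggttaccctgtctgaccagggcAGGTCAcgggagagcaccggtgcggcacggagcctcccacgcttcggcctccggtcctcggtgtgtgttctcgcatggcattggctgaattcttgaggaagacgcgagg
Notch4 had GGGTCA 239 bases before the start on the forward strand and again 150 bases before it on the reverse strand, and Dll1 had AGGTCA 109 bases before its inner start. The table has both Dll1 starts; the window of the inner one lies within the span of the gene in RefSeq, and the window directly before that span, at the outer start, held no such hexamer. Jag1 had none of these letters in its window. In all, 9 of the 10 genes had 1 or more windows in the table, 10 windows in total; Hes1 had none. Of these 10 windows 3 held a hexamer (Notch4, Dll1 and Dll3), beside 38.6% of all 32851 promoters, and 0 held TGGGAA, beside 21.6%. The E box CANNTG, a site of bHLH proteins, was in 5 windows, beside 66.2% of all promoters, and the N box CACNAG, a site of Hes proteins, was in 4, beside 36.7%; a single stretch can match several of these searches. GGGTCA alone was in 11.6% and AGGTCA in 14.0% of all promoters. Such matches describe letters and are no evidence of binding.

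Between the groups, 7 of the 10 genes differed (moderated F test in limma, adjusted p under 0.05), where 44.8% of all genes did. Dll3, Dll4 and Jag2 did not pass, with adjusted p of 0.760, 0.789 and 0.229 in that F test. With 1 array left out, 5 to 7 of the 10 genes passed. The group means spanned 0.95 for Notch4, 0.69 for Jag1 and 0.61 for Dll1 on the log2 scale, and between 0.09 and 0.40 for the other genes. The values on every array are plotted by gene.

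**Figure D1:**
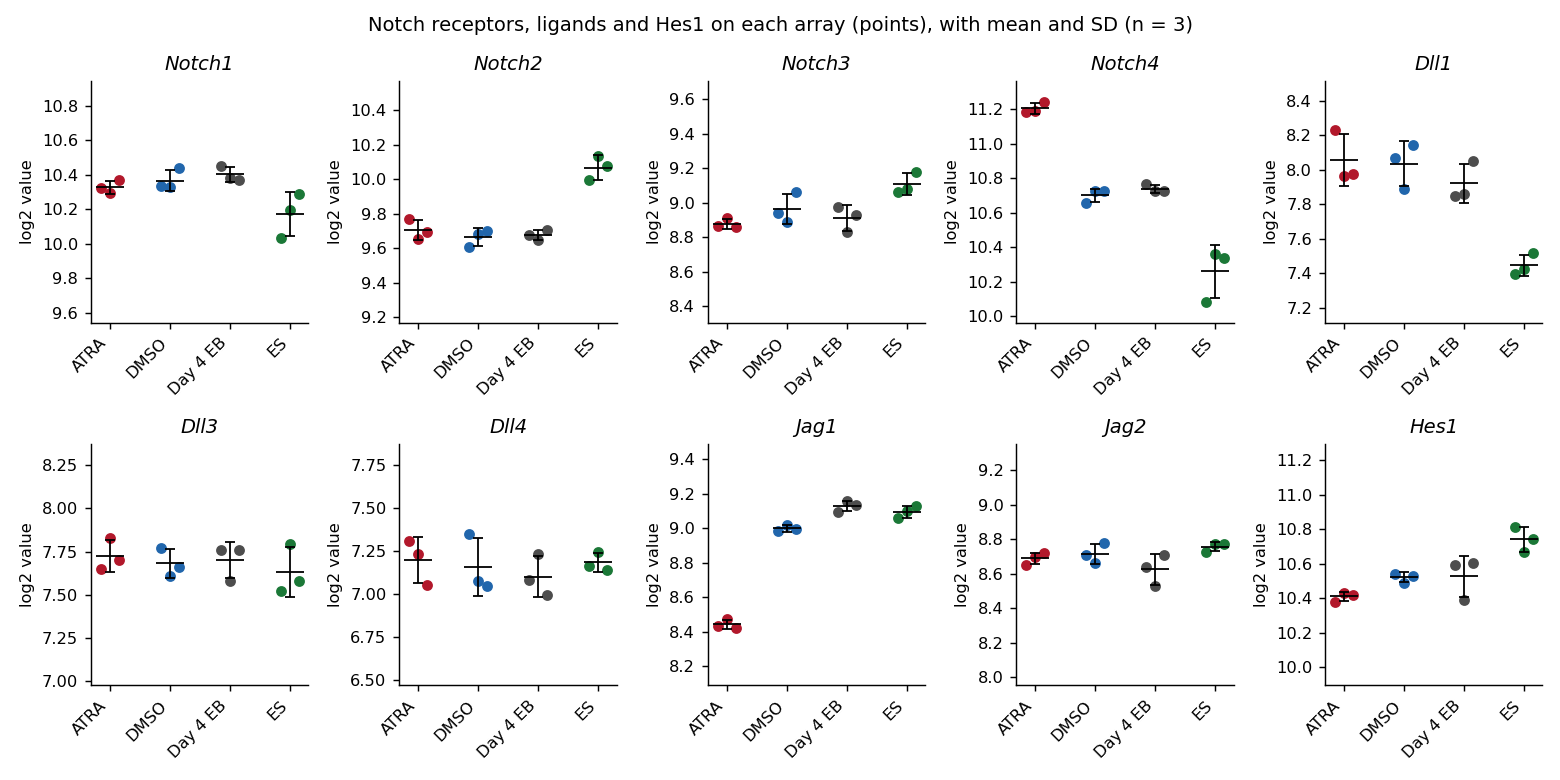
Log2 value of each of the 10 genes on each array (points), by group from left to right ATRA, DMSO, day 4 EB and ES, with the group mean (long bar) and SD (n = 3). All panels cover the same height of log2 units but different levels. Notch4 stands highest and Jag1 lowest with ATRA, and Dll1 and Notch4 stand lowest in ES cells.

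ATRA-treated against DMSO-treated EBs asks what ATRA changed beyond its solvent. Of the 10 genes, 1 was called higher, Notch4, and 1 lower, Jag1, where 13.3% of all genes were called, 6.26% higher and 7.05% lower. A count of 2 of 10 is close to that background. The other 8 did not pass, and the median log2 difference of the 10 was -0.001, beside 0.010 over all genes. In 3 of the 10 genes the ATRA and DMSO values were fully apart, beside 39.6% of all genes.

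Notch4, a receptor gene known for its expression in endothelium, rose with ATRA. Its log2 levels were 11.18, 11.19 and 11.24 with ATRA, against 10.66, 10.72 and 10.72 with DMSO, 10.76, 10.72 and 10.72 in day 4 EBs, and 10.08, 10.36 and 10.34 in ES cells. Every ATRA array lay above every other array, and every EB array above every ES array. Against DMSO the difference was 0.50 ± 0.07 (1.42-fold, 95% interval 0.36 to 0.65, limma adjusted p = 2.15e-04), larger in size than the differences of 97.6% of all genes or equal to them. Against day 4 EBs it was 0.47 ± 0.07 (limma adjusted p = 3.58e-04), a comparison that shares the ATRA arrays. Across the 14 alternative settings the difference from DMSO ran from 0.48 to 0.53 and the call held in each. Several of these settings can change the test but not the difference. Markers of endothelium split in the same comparison, where 13.3% of all genes were called. Of 8 genes 3 rose and 2 fell, with Pecam1 at 0.73 ± 0.05 and Cdh5, the gene of an endothelial cadherin, at -0.30 ± 0.05. Array means over those 8 markers were 8.07 to 8.15 with ATRA and 8.04 to 8.09 with DMSO on the log2 scale. Their part in the Notch4 result was not tested.

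Jag1, which encodes a ligand of the Serrate type, fell with ATRA. Its log2 levels were 8.43, 8.47 and 8.42 with ATRA, against 8.98, 9.02 and 8.99 with DMSO, 9.09, 9.15 and 9.13 in day 4 EBs, and 9.06, 9.10 and 9.13 in ES cells. The 3 ATRA arrays lay below all 9 others, and the DMSO arrays lay a little below the day 4 arrays. Against DMSO the difference was -0.56 ± 0.04 (1.47-fold lower, 95% interval -0.64 to -0.47, limma adjusted p = 2.43e-06), larger in size than or equal to the differences of 98.1% of all genes. The difference of DMSO from day 4 EBs, -0.13 ± 0.04, did not pass (limma adjusted p = 0.151). Over the 14 alternatives the Jag1 difference between ATRA and DMSO ran from -0.57 to -0.53 and stayed called. Visceral endoderm markers moved as well, where 13.3% of all genes were called. Of 10 genes 1 rose and 5 fell with ATRA, their array means being 10.44 to 10.61 with ATRA and 10.62 to 10.82 with DMSO. Of the fibroblast markers 0 of 8 rose and 3 fell, with array means of 7.72 to 7.75 with ATRA and 7.85 to 7.91 with DMSO. Their part in the Jag1 result was not tested.

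The other receptors and ligands moved little between ATRA and DMSO. Notch1, a receptor of the early embryo and of neural progenitors, stood at 10.33, 10.29 and 10.37 with ATRA and at 10.33, 10.33 and 10.44 with DMSO, overlapping log2 levels with a difference of -0.04 ± 0.06 (95% interval -0.17 to 0.10). Notch2 differed by 0.04 ± 0.05 (95% interval -0.07 to 0.15) and Notch3 by -0.09 ± 0.06 (95% interval -0.21 to 0.04). The Delta-type ligand gene Dll1 had log2 levels of 8.23, 7.97 and 7.98 with ATRA and 8.07, 7.89 and 8.14 with DMSO, which overlap (difference 0.02 ± 0.09, 95% interval -0.17 to 0.21). Dll3, which codes for a Delta protein that inhibits Notch within its own cell and acts in somite formation, differed by 0.04 ± 0.08. The arterial ligand gene Dll4 also differed by 0.04, with an SE of 0.09. Jag2, the second Serrate-type ligand, differed by -0.03 ± 0.05. None of these intervals reached the size of the Notch4 or Jag1 difference, the widest bound being 0.24 for Dll4.

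Hes1, the repressor that reads out the pathway in many tissues, had log2 levels of 10.38, 10.43 and 10.42 with ATRA, against 10.54, 10.49 and 10.53 with DMSO. The 3 ATRA values lay below the 3 DMSO values. The difference was -0.11 ± 0.06 (95% interval -0.24 to 0.02) and did not pass over all genes (limma adjusted p = 0.283, and 0.0937 to 0.503 over the 14 alternatives). In the same comparison 13.3% of all genes were called. Of 8 neural progenitor markers 2 rose and 0 fell, with array means of 8.31 to 8.38 with ATRA and 8.15 to 8.18 with DMSO. Of 8 ES cell markers 0 rose and 3 fell, with the array means given above. Those means hide larger moves of single markers, such as Zfp42, with a group mean of 11.11 with ATRA and 11.67 with DMSO. The part of both marker lists in the Hes1, Notch4 and Jag1 values was not tested.

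**Figure D2:**
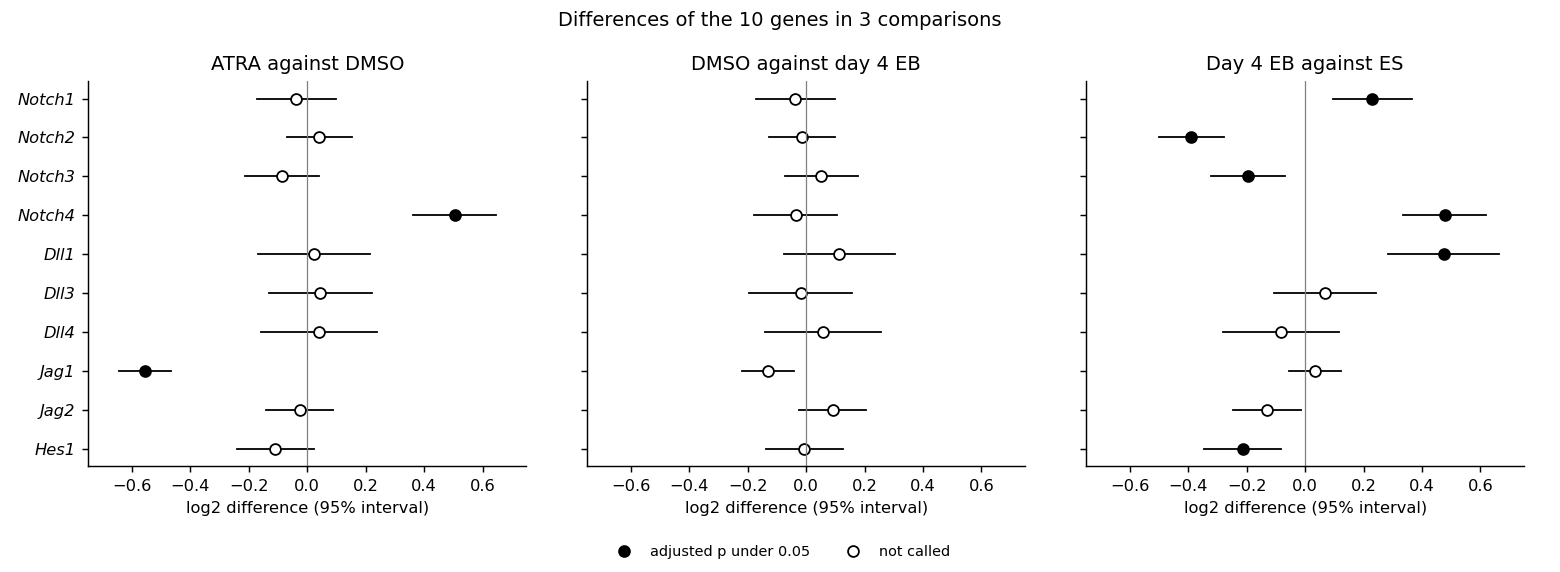
Log2 differences (points) of the 10 genes with their 95% intervals (lines) for ATRA against DMSO, DMSO against day 4 EB and day 4 EB against ES, first-named group minus second, from the fit over 12 arrays. Filled points have an adjusted p under 0.05: 2 genes on the left, 0 in the middle and 6 on the right.

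Day 4 EBs against ES cells covers the days of aggregation without LIF. Of the 10 genes 3 were higher (Notch4, Dll1 and Notch1) and 3 lower (Notch2, Hes1 and Notch3), where 34.7% of all genes were called, 17.8% higher and 16.9% lower. The median log2 difference of the 10 was -0.02, beside 0 over all genes, and 7 of the 10 had values that did not overlap, as 41.3% of all genes did.

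Among the receptors the directions split. Notch4 rose by 0.48 ± 0.07 (limma adjusted p = 9.42e-05) with the values given above. Notch2 had log2 levels of 9.68, 9.65 and 9.71 in day 4 EBs against 9.99, 10.13 and 10.08 in ES cells, and stood at 9.77, 9.65 and 9.69 with ATRA and 9.60, 9.68 and 9.70 with DMSO. All 9 EB arrays, treated or not, lay below all 3 ES arrays. Notch2 fell by 0.39 on the log2 scale (SE 0.05, 1.31-fold lower, limma adjusted p = 6.98e-05), and its range over the 15 alternatives was -0.43 to -0.34, called in each. Notch1 had log2 levels of 10.45, 10.38 and 10.37 in day 4 EBs against 10.04, 10.20 and 10.29 in ES cells, values that do not overlap. It rose by 0.23 ± 0.06 (limma adjusted p = 0.0121), and that call ended with array weights (limma adjusted p = 0.0579) and with only the 2 groups in the fit (limma adjusted p = 0.0574). Notch3, whose product is best known from vascular smooth muscle, had log2 levels of 8.97, 8.83 and 8.93 in day 4 EBs against 9.06, 9.08 and 9.18 in ES cells. It fell by 0.20 (SE 0.06, limma adjusted p = 0.0187). Without ES replicate 3 or EB replicate 2 the Notch3 differences were -0.16 each and not called (limma adjusted p = 0.0822 and 0.0717), and the call also ended with median centring of the arrays (limma adjusted p = 0.0840), with only the 2 groups (limma adjusted p = 0.0593) and without ES replicate 2 and EB replicate 2 together (limma adjusted p = 0.0870).

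Of the ligand genes Dll1 was the only 1 called in this comparison. Its log2 levels were 7.85, 7.86 and 8.05 in day 4 EBs against 7.40, 7.43 and 7.52 in ES cells, and the 9 EB arrays of all treatments lay above the 3 ES arrays. Dll1 rose by 0.47 ± 0.09 (1.39-fold, 95% interval 0.28 to 0.67, limma adjusted p = 9.54e-04), and the 14 alternatives gave 0.41 to 0.51. Jag1 differed by 0.03 ± 0.04 (95% interval -0.05 to 0.12), and its values overlapped. Jag2 had log2 levels of 8.64, 8.53 and 8.71 in day 4 EBs against 8.73, 8.77 and 8.78 in ES cells; the difference of -0.13 ± 0.05 missed the threshold (limma adjusted p = 0.0770) but passed without EB replicate 3 (-0.17, limma adjusted p = 0.0373), with array weights (limma adjusted p = 0.0369) and among genes above the median level (limma adjusted p = 0.0315). Dll3 stood between 7.58 and 7.76 in day 4 EBs and between 7.52 and 7.79 in ES cells. Dll4 stood between 6.99 and 7.23 in day 4 EBs and between 7.14 and 7.25 in ES cells. Both ligand genes had overlapping values, with differences of 0.07 ± 0.08 and -0.08 ± 0.09. Without ES replicate 2 and EB replicate 2 together, Dll3 was at 0.21 and called (limma adjusted p = 0.0487).

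Hes1 had log2 levels of 10.59, 10.39 and 10.60 in day 4 EBs against 10.81, 10.67 and 10.74 in ES cells. No value overlapped, and EB replicate 2 was the lowest. Hes1 fell by 0.21 (SE 0.06, 1.16-fold lower, limma adjusted p = 0.0152). The call was marginal and was lost in 4 of the 15 alternatives: without ES replicate 1 the log2 difference was -0.18 (limma adjusted p = 0.0518) and without EB replicate 2 it was -0.14 (limma adjusted p = 0.0534). With all arrays kept, the call also ended with median centring (limma adjusted p = 0.0836) and with only the 2 groups in the fit (limma adjusted p = 0.0801).

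Marker lists of other cell types were read for the same step, where 34.7% of all genes were called. Of the 10 visceral endoderm markers 10 rose, with array means of 10.23 to 10.43 in day 4 EBs and 9.02 to 9.08 in ES cells on the log2 scale. Of the 8 fibroblast markers 0 rose and 6 fell, with array means of 7.89 to 8.03 in day 4 EBs and 9.08 to 9.10 in ES cells. Of the 8 neural progenitor markers 3 rose and 1 fell (8.14 to 8.23 in day 4 EBs, 8.07 to 8.20 in ES cells), and of the 8 endothelial markers 2 rose and 1 fell (8.07 to 8.11 and 7.95 to 8.01). The endothelial share called, 37.5%, was close to that of all genes, and the array means of the neural progenitor markers overlapped. On this log2 scale no value reaches 0 (the lowest on any array was 2.30), so an absent marker cannot be read from it. What part these cells have in the differences of Notch1 to Notch4, Dll1 and Hes1 was not tested.

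DMSO-treated against untreated day 4 EBs covers the solvent with any added time. In limma 0 of the 10 genes were called, where 0.747% of all genes were (0.537% higher and 0.211% lower), and 1 (Jag1) had an unadjusted p under 0.05. The values of Jag1 and Notch4 lay fully apart, lower with DMSO in both, though for Notch4 by less than the digits printed above; 2 of 10 genes did so, beside 22.4% of all genes. When only genes above the median of mean value were tested, Jag1 was called (limma adjusted p = 0.0452). The 10 differences lay between -0.13 (Jag1) and 0.11 (Dll1).

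Set against ES cells, ATRA-treated EBs had 2 of the 10 genes higher and 4 lower, where 36.6% of all genes were called, 17.5% higher and 19.1% lower. DMSO-treated EBs had 3 of the 10 higher and 2 lower, where 39% of all genes were called, 18.4% higher and 20.6% lower. Values lay fully apart for 8 of the 10 with ATRA, beside 47.4% of all genes, and for 6 with DMSO, beside 47.5%. Both comparisons use the same ES arrays, and their values stand side by side. Notch4 was at 0.95 ± 0.07 with ATRA (1.93-fold) and 0.44 ± 0.07 with DMSO. Dll1 was at 0.61 ± 0.09 with ATRA and 0.59 ± 0.09 with DMSO. Notch2 was at -0.36 ± 0.05 with ATRA and -0.40 ± 0.05 with DMSO, and Hes1 at -0.33 ± 0.06 with ATRA and -0.22 ± 0.06 with DMSO, where median centring ended the call (-0.17, limma adjusted p = 0.0994). Jag1 was at -0.65 ± 0.04 with ATRA and at -0.10 ± 0.04 with DMSO, where it did not pass (limma adjusted p = 0.0846) except with array weights (-0.12, limma adjusted p = 0.00435) and among genes above the median level (limma adjusted p = 0.0360). Notch3 was called with ATRA only (-0.23 ± 0.06, limma adjusted p = 0.00730), its difference between ATRA and DMSO not passing. That ATRA call ended with median centring (-0.19, limma adjusted p = 0.0517). With DMSO Notch3 passed without DMSO replicate 3 (-0.19, limma adjusted p = 0.0263), with array weights (-0.22, limma adjusted p = 9.65e-04) and among genes above the median level (limma adjusted p = 0.0300). Notch1 was called with DMSO only (0.19 ± 0.06, limma adjusted p = 0.0275), a call that ended without ES replicate 1 (0.12, limma adjusted p = 0.0858), DMSO replicate 3 (0.16, limma adjusted p = 0.108) or both ES replicate 2 and EB replicate 2 (limma adjusted p = 0.0518). It also ended with array weights (0.09, limma adjusted p = 0.125) and with only the 2 groups (limma adjusted p = 0.0825). With ATRA Notch1 passed without ES replicate 3 (0.21, limma adjusted p = 0.0215), with median centring (0.20, limma adjusted p = 0.0313), with the intensity trend (limma adjusted p = 0.0344) and among genes above the median level (limma adjusted p = 0.0305). Against day 4 EBs, ATRA-treated EBs had 1 gene higher (Notch4) and 1 lower (Jag1), where 18.4% of all genes were called, 7.79% higher and 10.6% lower; 3 genes lay fully apart, beside 36.7%. Hes1 was at -0.12 ± 0.06 there and not called (limma adjusted p = 0.225), and it passed without EB replicate 2 (-0.19, limma adjusted p = 0.0313), also with ES replicate 2 left out (limma adjusted p = 0.0200), and with array weights (-0.15, limma adjusted p = 0.0481).

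In the order of the group means, most steps between neighbours were not called. A step that was not called can still have values fully apart, as for Hes1 between ATRA and DMSO and for Jag1 between DMSO and ES. For Notch4 the order from low to high was ES, DMSO, day 4 EB, ATRA, with called steps from ES to DMSO and from day 4 EB to ATRA. For Jag1 it was ATRA, DMSO, ES, day 4 EB, and only the first step was called. For Dll1 it was ES, day 4 EB, DMSO, ATRA, and again only the first step was called. Notch2 ran from DMSO through day 4 EB and ATRA to ES, and Hes1 from ATRA through DMSO and day 4 EB to ES, each with a called last step only. For Notch1 and Notch3, and for Dll3, Dll4 and Jag2, no step between neighbours was called.

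The other parts of the pathway were read from 8 lists, with 73 genes analysed here. For ATRA against DMSO 6 of the 73 rose and 8 fell, 19.2% in all beside 13.3% of all genes, with a median log2 difference of 0.002. All 14 changed by less than 0.5 on the log2 scale, the limit set for naming. They are all named below, a choice made after their values were seen. With median centring 11 of the 73 were called, with array weights 21, and with 1 array left out 10 to 13. Not every call named here therefore held in each setting. Rbpj, which encodes the DNA-binding partner of the cleaved receptor, fell by 0.26 (SE 0.05, limma adjusted p = 0.00321), the only 1 called of 11 genes of the nuclear complex. Hey2 and Hey1, both targets of Notch, fell (-0.42 ± 0.09 and -0.17 ± 0.05), and Bhlhe40, a related bHLH repressor gene known for its response to hypoxia, rose (0.41 ± 0.08), of 11 Hes and Hey family genes. Hes5, which like Hes1 is a Notch target in neural progenitors, was at 0.21 ± 0.09 and not called (limma adjusted p = 0.146). The gene of the glycosyltransferase Mfng, which adds sugar to receptors, rose (0.24 ± 0.06) and the xylosyltransferase gene Xxylt1 fell (-0.15 ± 0.05), of 8 glycosylation genes. Epn2 (0.26 ± 0.05), an epsin gene of ligand endocytosis, and Mib2 (0.24 ± 0.07), a ubiquitin ligase gene for ligands, rose, 2 of 6. Of 14 genes listed under receptor inhibition and turnover, the ubiquitin ligase gene Itch rose (0.26 ± 0.05), while Dlk1 (-0.33 ± 0.07), a non-canonical ligand gene, and Ankrd6 (-0.32 ± 0.05) fell. That name is only a heading, and these data do not show that each gene under it, Ankrd6 among them, limits Notch receptors. Of the 6 proneural genes Neurog3 fell (-0.45 ± 0.07), and of 8 presomitic mesoderm genes Meox1 rose (0.32 ± 0.07) and Epha4 fell (-0.41 ± 0.05). None of the 9 receptor processing genes was called in limma, and 0 had an unadjusted p under 0.05.

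For day 4 EBs against ES cells 23 of the 73 pathway genes rose and 13 fell, 49.3% beside 34.7% of all genes, with a median log2 difference of 0.01. Of the 14 genes listed under receptor inhibition and turnover 8 rose and 3 fell. Dtx3 (0.48 ± 0.07) and Dtx1 (0.41 ± 0.06), both of the Deltex family, and Ankrd6 (0.44 ± 0.05) were higher and Dlk1 (-0.52 ± 0.07) was lower. Hes and Hey family genes rose in 3 of 11 cases: Hey2 (0.86 ± 0.09), Bhlhe40 (0.64 ± 0.08) and Hes6 (0.45 ± 0.06), the last of which codes for a protein that counteracts Hes1. Of 8 glycosylation genes 2 rose and 3 fell, with the xylosyltransferase gene Gxylt2 at -1.56 ± 0.08. For ligand endocytosis 2 of 6 rose, Mib2 (0.41 ± 0.07) and Mib1 (0.29 ± 0.05), and 2 fell, Neurl1b (-0.61 ± 0.11) and Epn2 (-0.16 ± 0.05). In the nuclear complex 3 of 11 rose and 3 fell, with the acetyltransferase gene Kat2b at 0.43 ± 0.06 and the Mastermind gene Maml2 at -0.33 ± 0.06, while Rbpj did not pass (-0.04 ± 0.05). Of 9 processing genes Aph1a (0.23 ± 0.06) and Ncstn (0.17 ± 0.04), subunit genes of gamma-secretase, rose and Aph1b (-0.43 ± 0.07) fell. Neurog3 rose (0.91 ± 0.07), 1 of 6 proneural genes. Of 8 presomitic mesoderm genes Epha4 (0.31 ± 0.05) and Tbx6 (0.27 ± 0.05) rose and Mesp2 (-0.36 ± 0.07) fell. With DMSO against day 4 EBs, 1 of the 73 was called, the protease gene Furin (0.24 ± 0.05, limma adjusted p = 0.0402), and that call is lost without any 1 of EB replicates 1, 2 or 3 or DMSO replicates 1 or 3. Differences of the 73 genes are plotted by list.

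**Figure D3:**
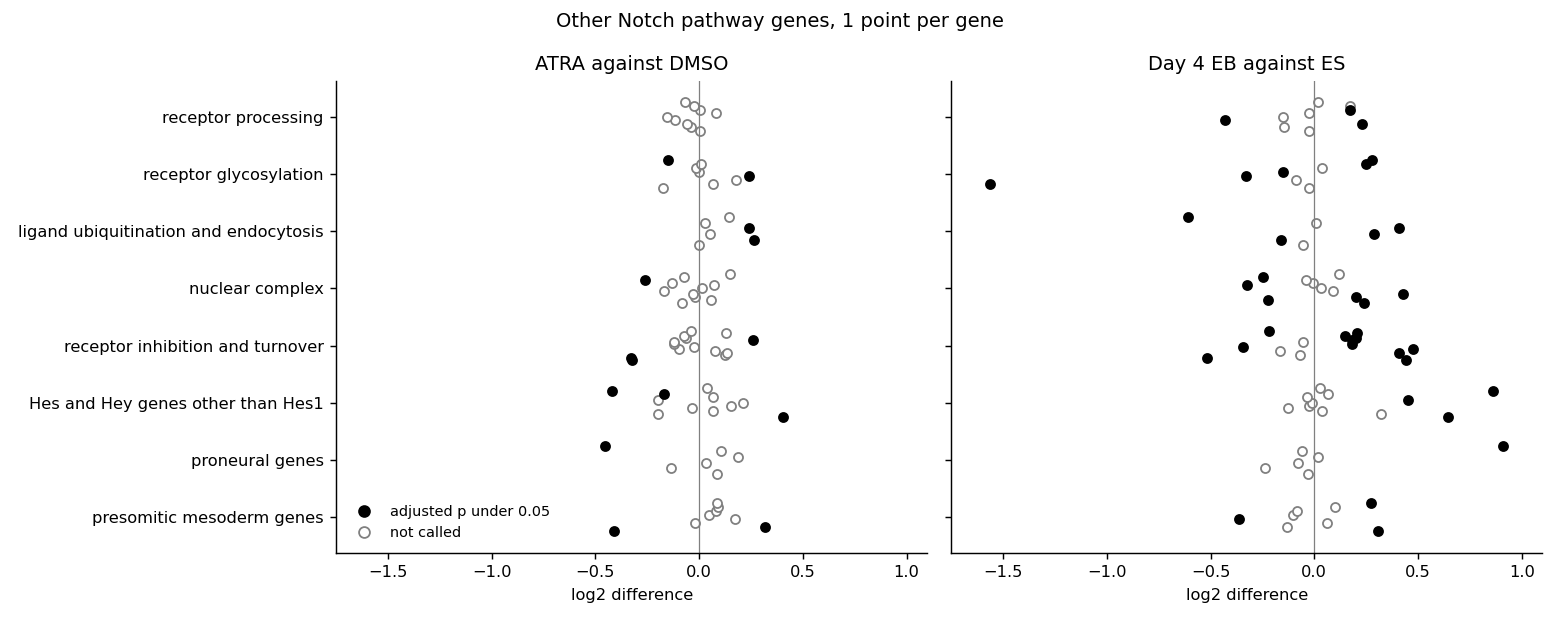
Log2 difference of each of the 73 other pathway genes (points), by list from top to bottom, for ATRA against DMSO on the left and day 4 EB against ES on the right, first-named group minus second. Filled points have an adjusted p under 0.05, 14 on the left and 36 on the right, and the point farthest from 0 is Gxylt2 at -1.56.

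Genes with profiles most like those of Notch4, Jag1 and Dll1 were found by the root mean square difference of gene-centred log2 values over the 12 arrays. The limit on the span of group means for this search had been 1, which no gene of the 10 reached, and it was lowered to 0.5 after the values were seen. Nearest to Notch4 were Adcy1 (an adenylate cyclase gene, 0.0807), Rara (the gene of retinoic acid receptor alpha, 0.0898) and Tmem125 (0.0934). Rara stood at log2 means of 11.04 with ATRA, 10.59 with DMSO, 10.43 in day 4 EBs and 10.06 in ES cells. Nearest to Jag1 were Fry (0.0593), Pdgfa, which encodes a ligand of PDGF receptors (0.0629), and Mfap3l (0.0649). Pdgfa stood at 11.14 with ATRA, 11.66 with DMSO, 11.69 in day 4 EBs and 11.67 in ES cells. Nearest to Dll1 were Phf19, the gene of a Polycomb-associated protein, Hapln4 and Tom1, at 0.0836, 0.0851 and 0.0853. The 12 arrays fall into 4 groups, so these likenesses rest mostly on 4 levels each.

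**Figure D4:**
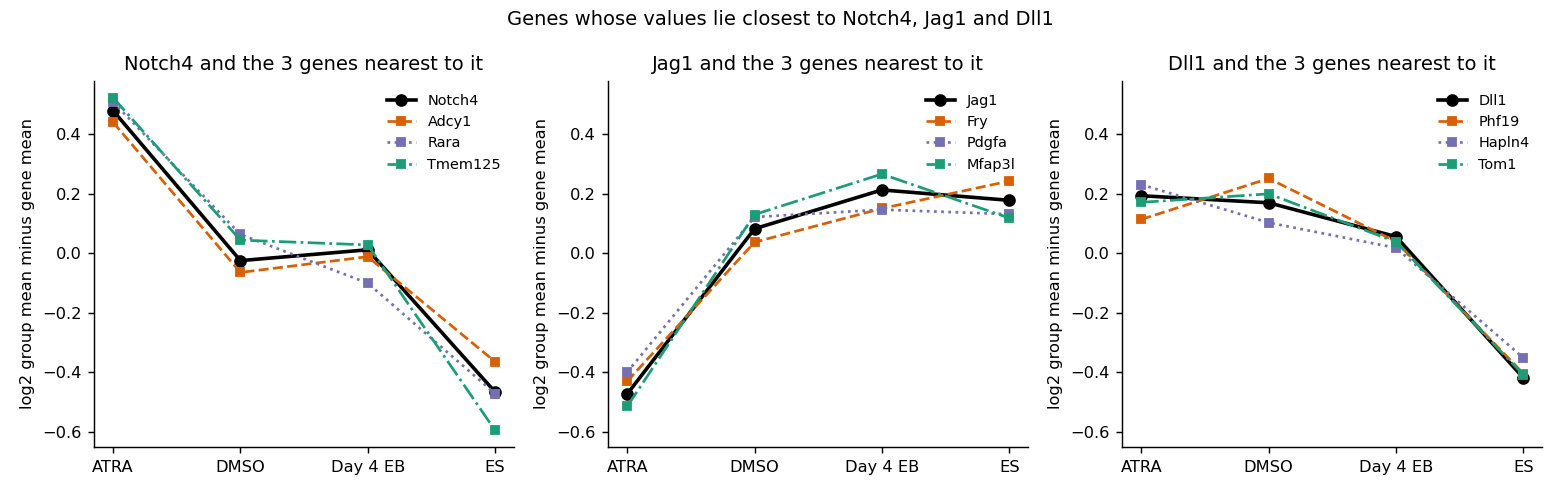
Log2 group means minus the mean of the 4 group means (vertical axis) of Notch4, Jag1 and Dll1 (black) and of the 3 genes nearest to each (coloured lines), by group from left to right ATRA, DMSO, day 4 EB and ES. Notch4 and its neighbours in profile lie highest with ATRA and lowest in ES cells, and Jag1 and its neighbours in profile lie lowest with ATRA.

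Genes beside Notch4 and Jag1 on the chromosome, by the order of genes in RefSeq on GRCm38.p6, were read after the values of Notch4 and Jag1 were seen. Notch4 lies on chromosome 17, and the 3 measured genes after it are Gpsm3, Pbx2 and Ager. Pbx2, which encodes a cofactor of Hox proteins and lies 3.7 kb away, rose with ATRA against DMSO (0.45 ± 0.05, limma adjusted p = 4.43e-05). Gpsm3 (0.12 ± 0.08) and Ager (0.18 ± 0.10) did not pass, where 13.3% of all genes were called. The 3 measured genes before Notch4 (Btnl1, BC051142 and Btnl5-ps) did not pass either. In day 4 EBs against ES cells, where Notch4 rose and 34.7% of all genes were called, BC051142 rose as well (0.32 ± 0.11, limma adjusted p = 0.0404). Pbx2 was at -0.06 ± 0.05 there and did not pass, and neither did the other neighbours of Notch4. Jag1 lies on chromosome 2, and of the 3 measured genes on each side only Btbd3 was called with ATRA against DMSO (-0.33 ± 0.05, limma adjusted p = 3.98e-04). Btbd3 lies 1140 kb from Jag1, so it is next in order but not close. Between day 4 EBs and ES cells Btbd3 rose (0.38 ± 0.05, limma adjusted p = 3.46e-05), where Jag1 did not pass. Slx4ip, the nearest measured gene at lower coordinates and 0.1 kb from Jag1, was at -0.01 ± 0.07 with ATRA against DMSO and did not pass.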

How the data were processed

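The authors deposited 1 table of log2 values for 35556 probe sets on 12 arrays. That scale was read from the range of the values. How the arrays were background-corrected, normalized and summarized is not given in the sources used here. RNeasy extraction and the Ambion WT Expression kit are named in the labels' protocols. Of the probe sets 21789 had 1 symbol in the platform annotation, 1621 had several (6 of them Notch4 with another gene, not used here) and 12146 were unlisted there. Where several single-symbol probe sets shared a gene, the one highest on average stands for it, 19938 genes in all, with no filter on low values.

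Group means were fitted with lmFit and eBayes (limma 3.58.1, R 4.3.3; residual degrees of freedom 8, prior 3.93). Tests were two-sided, and the code was tested on simulated data. The 10 genes and the lists (8 of the pathway, 5 of markers: ES cell, visceral endoderm, neural progenitor, endothelium and fibroblast) were chosen with earlier results of these data known. The rule for naming took the 10 genes and the 3 most like genes. Per pathway list it took genes called with a log2 difference of at least 0.5 for ATRA against DMSO, and up to 4 of the largest called elsewhere. No called pathway gene reached 0.5 for ATRA against DMSO, so all those called there were named after their values were seen, with Hes5 beside them. The labels call replicates biological without naming separate cultures, so p-values measure the spread between these samples. No 2 arrays were copies (at most 0.0562% identical values).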

Additional observations from a re-analysis of the deposited data

How the results depend on the processing

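Alternatives were array weights, quantile normalization, a replicate block, median centring, a fit of only the 2 groups, averaged probe sets, a robust prior with an intensity trend, a test of genes above the median level, single arrays left out, and, chosen after seeing the data, ES replicate 2 and EB replicate 2 left out together. Averaging probe sets could not change the values of the 10 genes, which had 1 probe set each. The replicate block, the intensity trend, the test of genes above the median and the fit of only the 2 groups leave the log2 difference unchanged. They bear on the test alone, so the ranges of differences given above rest on the other settings. No log2 difference of the 10 genes that was called, in the main setting or the alternative, changed direction. Of the 10 genes, 3 in place of 6 were called for day 4 EBs against ES cells with only the 2 groups compared, and 1 in place of 0 for DMSO against day 4 EBs among genes above the median. For DMSO against day 4 EBs, 1 pathway gene was called, against 0 with median centring, with the replicate block, with only the 2 groups or without ES 2 and EB 2, 4 among genes above the median and 3 with the intensity trend; leaving out 1 array gave 0 to 1. The cause of these moves was not tested. Leaving out 1 array gave 4 to 7 of the 10 genes for day 4 EBs against ES cells, and 2 in every case for ATRA against DMSO.

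Over all genes, calls numbered 4311 with array weights in place of 2655 (ATRA against DMSO) and 11052 in place of 7306 (ATRA against ES). For DMSO against day 4 EBs they numbered 253 with quantile normalization, 761 among genes above the median, 626 with the trend, 62 with the block and 25 with only the 2 groups, in place of 149. With median centring 58.6% of calls were higher for ATRA against ES (47.9% in the main setting), 58.3% for DMSO against ES (47.2%) and 87.0% for DMSO against day 4 EBs (71.8%, and 57.7% with quantile normalization). Deviations of same-numbered samples correlated above 0.1 in 2 of 18 pairs, ES with EB replicate 1 (0.30) and replicate 2 (0.51), and at or below it in the other 16, so the numbers are not taken as pairs. With the replicate block the calls of all 10 genes in the 6 comparisons were as in the main setting. Signal over background is unknown, since the table has no detection values.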
